A study of Mus musculus with 12 samples.

Results

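The 8 genes of the Hedgehog pathway described here were followed in 12 RNA-seq libraries of mouse brain, 9 from brain tumours and 3 from normal brain. They were chosen by name as Gli1, Gli2, Gli3, Ptch1, Smo, Sufu, Hhip and Gas1, and all 8 matched 1 Ensembl gene each among the 49671 of the deposited count table. All 8 had enough counts to be tested with 17812 genes in all. The tissue was formalin-fixed and paraffin-embedded, which fragments RNA.

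The libraries form 4 groups of 3. The tumour genotype in the labels is IDH1_R132H, a mutant isocitrate dehydrogenase 1 frequent in human glioma, IDH1WT, the wild-type enzyme, or PDGFA, a ligand of the PDGF receptor. The mice of all 4 groups share a genotype written N::TVA with floxed alleles that include Cdkn2alox/lox and Atrxlox/lox, and the normal brains are marked as TVA negative. TVA, a receptor from birds, makes a mouse cell open to avian RCAS vectors. The labels name no Cre, no age or sex and no batch, and whether PDGFA was also given in the IDH1 tumours is not stated. They do not say that each library is a separate animal, so p-values measure the spread between these libraries only. A tumour library also holds host brain cells.

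Hedgehog ligands bind the membrane protein PTCH1, which otherwise holds the transducer SMO inactive. Active SMO frees the GLI transcription factors from SUFU, and GLI proteins then act on target genes that include Gli1, Ptch1 and Hhip themselves. In the adult brain the pathway is known from astrocytes that respond to neuronal ligand and from neural stem cells, and its overactivity is known from medulloblastoma. The series aims at the glioma subtype of IDH1 mutant and wild-type tumours; here each pathway gene is described across the 4 groups.

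Total counts ran from 6507923 to 14277395 per library. Loci that resemble ribosomal RNA took 46.2% of the counts in IDH1_R132H tumour 3 and 2.95% to 19.5% elsewhere. PDGFA tumour 1 lay at 45.5 on the first principal component of the 2000 most variable genes, among the normal brains (42.3 to 45.8) and away from the other tumours (-42.5 to 2.81). The summed level of 8 astrocyte markers was 942 CPM there, against 3280 to 6130 in the other tumours and 4640 to 4820 in normal brain. That of 6 mature oligodendrocyte markers was 10900 CPM, against 2030 to 6020 and 3240 to 3310. Its 6 proliferation markers summed to 92 CPM, near the lowest of the other tumours (113 to 563) and above the normal brains (4.62 to 9.22). Brain tissue was checked by its markers, and all neuron, astrocyte and oligodendrocyte markers had counts in every library, with 6 oligodendrocyte precursor markers at 165 to 179 CPM in normal brain and 276 to 4110 CPM in tumours. Levels are CPM, read counts relative to library size after TMM scaling, with mean ± SD over libraries (n = 3 per group, n = 9 for all tumours). In such bulk tissue fewer cells that express a gene and less RNA per cell cannot be told apart.

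**Figure D1:**
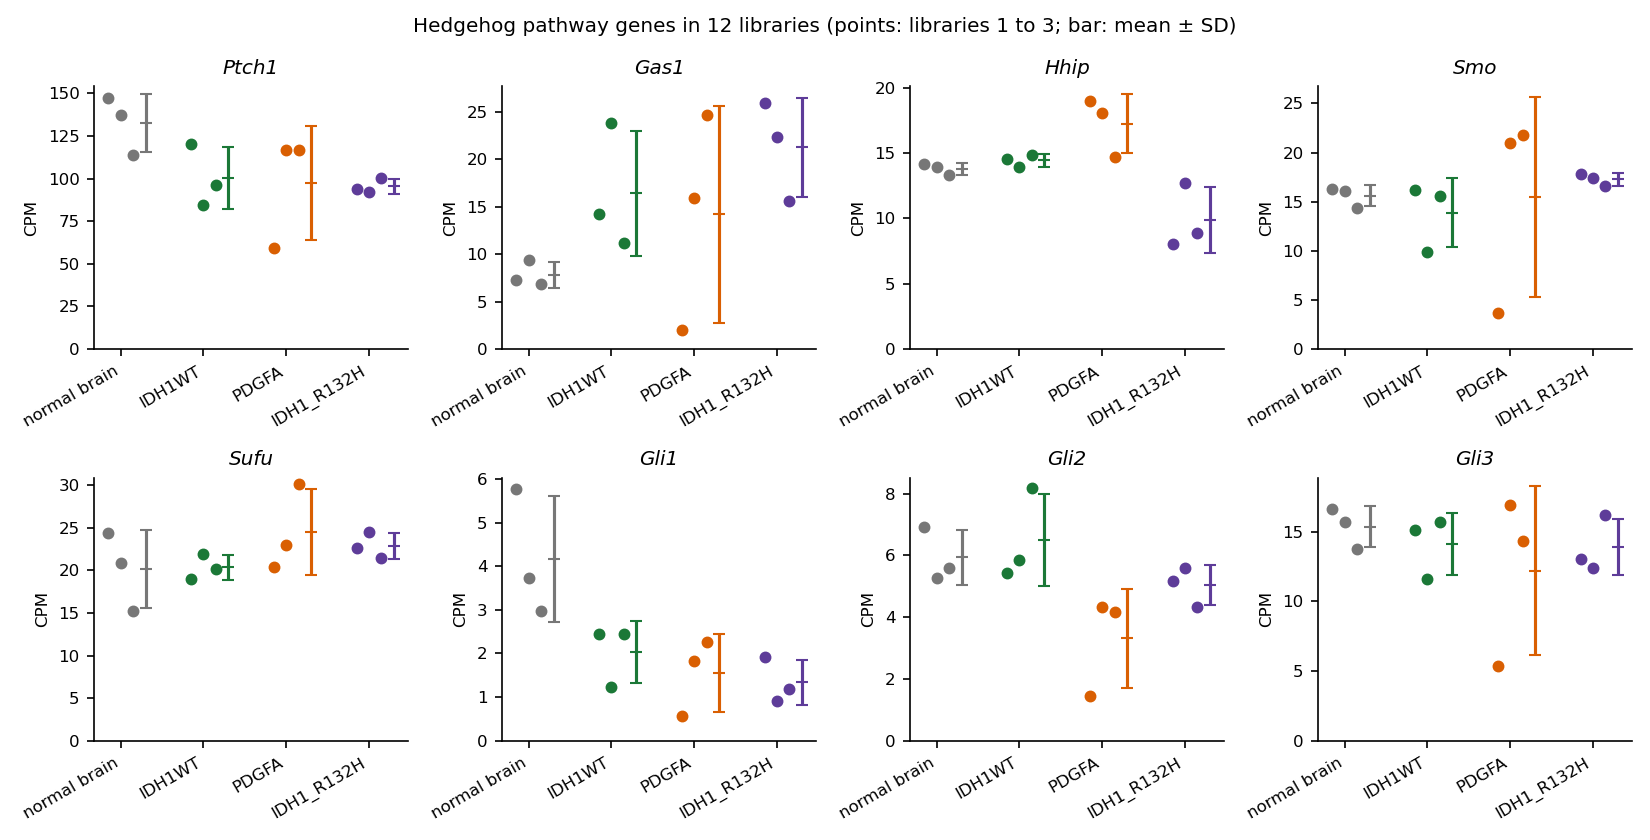
Level in CPM (vertical axes, from 0) of the 8 Hedgehog pathway genes in the 4 groups; points are libraries 1 to 3 from left to right and the bar beside them is the mean ± SD. Gli1 is lower in all 9 tumours than in any normal brain, and PDGFA tumour 1 is the lowest library for 6 of the genes.

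Tumours as a whole were compared with normal brain first. Gli1 stood lower in all 9 tumours than in the 3 normal brains, at a mean of 1.64 ± 0.697 CPM against 4.16 ± 1.45, without passing the threshold (edgeR adjusted p = 0.054). Gas1 stood above the normal mean in 8 of 9 tumours, and Ptch1 stood below the normal mean in all 9, neither passing. The levels of Smo, Sufu, Hhip, Gli2 and Gli3 overlapped between tumours and normal brain. With edgeR 0 of the 8 genes passed, where 5.22% of all 17812 genes did; 3 had an unadjusted p under 0.05, as did 23.6% of all genes. DESeq2 called 1 of the 8 (Gli1) and 12.5% of all genes, and limma on the deposited rlog values 1 (Gli1) and 3.01% of all genes. Limma voom with sample quality weights called 3 (Gli1, Ptch1 and Gas1), where it called 33.7% of all genes, so its count for the 8 is near its background. The tumour range lay apart from the normal range for 1 of the 8 (7.5% of all genes), in the lower direction for 1 (2.84%) and in the higher direction for 0 (4.67%). The median log2 fold change of the 8 was -0.11, beside -0.01 for all genes tested.

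Ptch1 encodes the membrane receptor of the ligands and is itself a target gene (chromosome 13, 63508328 to 63573598, minus strand, GRCm38). It stood at 147, 137 and 114 CPM in normal brains 1 to 3. It stood at 120, 84.5 and 96.2 CPM in IDH1WT tumours 1 to 3, at 59, 116 and 117 CPM in PDGFA tumours and at 93.9, 92 and 100 CPM in IDH1_R132H tumours. All tumours lay below the normal mean, while IDH1WT tumour 1 and PDGFA tumours 2 and 3 lay above the lowest normal brain. Over normal brain the tumours had a log2 value of -0.44 (SE 0.19, edgeR adjusted p = 0.17). Voom with quality weights gave -0.5 with adjusted p = 0.0038, past the threshold in a fit that called 33.7% of all genes. Against the same normal brains the log2 values were -0.48 (SE 0.24, adjusted p = 0.23) for IDH1_R132H, -0.4 (SE 0.23, adjusted p = 0.37) for IDH1WT and -0.45 (SE 0.24, adjusted p = 0.54) for PDGFA.

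Hhip encodes a membrane-bound protein that binds and sequesters the ligands, and is a target gene that acts as a brake (chromosome 8, 79965851 to 80058006, minus strand). Its tumour groups lay on either side of normal brain. Normal brains held 14.2, 13.9 and 13.3 CPM and IDH1WT tumours 14.6, 13.9 and 14.9 CPM. IDH1_R132H tumours held 8.04, 12.7 and 8.88 CPM, and PDGFA tumours 19, 18.1 and 14.7 CPM. All IDH1_R132H tumours were thus below, and all PDGFA tumours above, every normal brain. The margins were small, at 12.7 against 13.3 CPM and 14.7 against 14.2 CPM. Ranges below normal brain were found for 18.8% of all genes in IDH1_R132H, and ranges above it for 8.23% in PDGFA. Normal brain and IDH1WT tumours spanned a narrow range. The log2 difference between IDH1_R132H and PDGFA tumours was -0.79 (SE 0.2, unadjusted p = 0.0016 and adjusted p = 0.28 by edgeR, rank 94 by p of 17812 genes). Adjusted p over the alternatives ran from 0.056 with DESeq2 to 0.75 with only those 6 libraries in the fit. Between IDH1_R132H and IDH1WT tumours it was -0.54 (SE 0.2, unadjusted p = 0.018, adjusted p = 1 by edgeR), again without overlap of the 3 against 3 libraries. Groups that do not overlap, IDH1_R132H being lower, were found for 7.25% of all genes between IDH1_R132H and PDGFA and for 3.79% between IDH1_R132H and IDH1WT. Against normal brain the log2 values were -0.47 (SE 0.2, adjusted p = 0.16) for IDH1_R132H, 0.07 (SE 0.19, adjusted p = 0.88) for IDH1WT and 0.32 (SE 0.19, adjusted p = 0.6) for PDGFA, so their mean over all tumours was near 0 at -0.03 (SE 0.16, adjusted p = 0.94).

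Since Ptch1 and Hhip are known GLI targets, the 250 bases before their RefSeq starts are shown (GRCm38.p6, chr13:63565736-63565985 and chr8:80058009-80058258, both on the minus strand, written in the direction of transcription). Capitals mark a 9-base window with the fewest mismatches to the GLI consensus GACCACCCA, searched on both strands. Where windows tie, as in Ptch1, only the first found is marked.
Ptch1: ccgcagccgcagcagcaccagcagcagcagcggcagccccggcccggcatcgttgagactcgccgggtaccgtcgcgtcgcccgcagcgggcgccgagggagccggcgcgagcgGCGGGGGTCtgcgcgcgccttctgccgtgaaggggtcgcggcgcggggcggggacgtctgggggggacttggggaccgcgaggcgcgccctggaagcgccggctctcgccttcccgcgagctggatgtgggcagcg
Hhip: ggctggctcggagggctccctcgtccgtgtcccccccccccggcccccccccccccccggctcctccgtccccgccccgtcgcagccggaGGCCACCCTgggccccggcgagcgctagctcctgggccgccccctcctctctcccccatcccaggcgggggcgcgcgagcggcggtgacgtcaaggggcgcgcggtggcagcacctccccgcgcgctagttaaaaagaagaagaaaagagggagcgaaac
The marked window differs from the consensus at 3 bases in Ptch1, on the reverse strand, and at 2 bases in Hhip, on the forward strand. Of 32851 promoters of the same length 51.8% hold a window with 2 or fewer mismatches and 98.6% one with 3 or fewer, while 0.225% hold the exact 9 bases, so neither window stands apart. The Ptch1 start used lies inside the gene's span, which begins at a start further upstream. RefSeq windows were matched for 7 of the 8 genes, Gli1 being the other.

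Gas1, a GPI-anchored co-receptor that helps PTCH1 bind the ligands (chromosome 13, 60174405 to 60177365, minus strand), had the largest differences upward of the 8. Normal brains held 7.28, 9.33 and 6.83 CPM. IDH1WT tumours held 14.2, 23.8 and 11.2 CPM, PDGFA tumours 2.01, 15.9 and 24.7 CPM and IDH1_R132H tumours 25.9, 22.3 and 15.6 CPM. The tumours other than PDGFA tumour 1 were above every normal brain, and PDGFA tumour 1 was below all of them. Over normal brain the tumours had a log2 value of 1.13 (SE 0.51, edgeR adjusted p = 0.2), or 2.19-fold. Without PDGFA tumour 1 it was 1.29 with edgeR adjusted p = 0.0079, past the threshold in a fit that called 13.5% of all genes. With 1 normal brain left out the edgeR adjusted p was between 0.36 and 0.46. By group it was 1.45 (SE 0.59, adjusted p = 0.15) for IDH1_R132H, 1.07 (SE 0.59, adjusted p = 0.35) for IDH1WT and 0.87 (SE 0.59, adjusted p = 0.65) for PDGFA. Of the 2961 exon bases of Gas1, 589 are shared with the opposite-strand predicted gene Gm48488, which has no counts of its own. Strand handling of the counting is not given, and the part of such reads was not tested. Gas1 is also expressed by fibroblasts; 6 pericyte and fibroblast markers summed to 156 to 220 CPM in normal brain and 148 to 440 CPM in tumours, and their part in the Gas1 levels was not tested.

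Smo, which encodes the transducer that carries the signal into the cell (chromosome 6, 29735503 to 29761365, plus strand), stood at 16.3, 16.1 and 14.4 CPM in normal brain. IDH1WT tumours held 16.2, 9.88 and 15.6 CPM, PDGFA tumours 3.69, 21 and 21.8 CPM, and IDH1_R132H tumours 17.8, 17.4 and 16.6 CPM. PDGFA tumour 1 was thus the lowest library and PDGFA tumours 2 and 3 the highest. Over all tumours the log2 difference from normal brain was 0 (SE 0.37), with an adjusted p of 1 by edgeR, and without PDGFA tumour 1 it was 0.15 (adjusted p = 0.61). The IDH1_R132H tumours had a coefficient of variation of 3.74%, against 66% in PDGFA tumours.

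Sufu, the inhibitor that keeps GLI proteins out of action (chromosome 19, 46396896 to 46488804, plus strand), was the member that varied least between libraries, with a coefficient of variation of 16.4% over all 12. It stood at 24.4, 20.9 and 15.2 CPM in normal brain and between 19 and 30.2 CPM, with a median of 22, in the 9 tumours. Normal brain 3 was below every tumour, normal brains 1 and 2 lay within the tumour range, and PDGFA tumour 3 and IDH1_R132H tumour 2 were above every normal brain. Over normal brain the tumours had a log2 value of 0.16 (SE 0.16, edgeR adjusted p = 0.58).

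**Figure D2:**
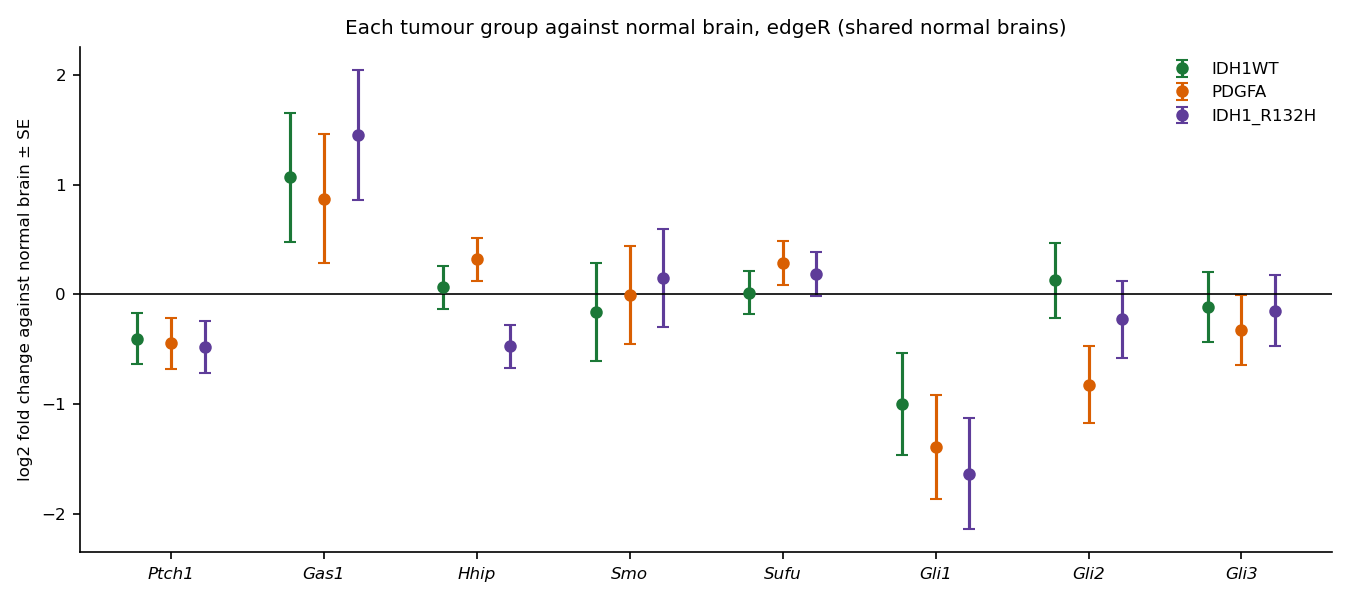
Log2 fold change of each tumour group against normal brain (vertical axis; points, with bars of 1 SE from edgeR) for the 8 genes. Gli1 lies below 0 in the 3 groups, between -1.63 and -1, Hhip lies below 0 in IDH1_R132H and above it in PDGFA, and the 3 comparisons share the same normal brains.

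Gli1, the activator whose own transcription depends on the pathway and which is used as its read-out (chromosome 10, 127329882 to 127341974, minus strand), had the largest difference of the 8 in size. Normal brains held 5.77, 3.73 and 2.98 CPM, from 50, 34 and 34 reads. IDH1WT tumours held 2.45, 1.22 and 2.45 CPM, PDGFA tumours 0.559, 1.82 and 2.27 CPM, and IDH1_R132H tumours 1.91, 0.916 and 1.18 CPM. No tumour reached the lowest normal brain, a pattern found in the lower direction for 2.84% of all genes. The tumour values rest on 5 to 37 reads each, so counting error alone is large in the single library. The log2 fold change was -1.34 (SE 0.37, unadjusted p = 0.0031, edgeR adjusted p = 0.054), a level 0.395 times that of normal brain. Other settings put Gli1 on either side of the threshold. The lowest adjusted p was 0.0013, from voom with quality weights, which called 33.7% of all genes. The highest was 0.3, from edgeR without normal brain 1, which called 0% of all genes. The log2 value of Gli1 was -0.53 by limma on the deposited rlog values (adjusted p = 0.049, with 3.01% of all genes called). It was between -1.04 and -1.54 in the other settings. By group it was -1.63 (SE 0.51, adjusted p = 0.067) for IDH1_R132H, -1 (SE 0.46, adjusted p = 0.27) for IDH1WT and -1.39 (SE 0.48, adjusted p = 0.28) for PDGFA.

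Marker levels beside Gli1 were as follows. Astrocyte markers ranged from 942 to 6130 CPM in tumours around the 4640 to 4820 CPM of normal brain. By edgeR 1 of 8 was higher and 0 lower in all tumours against normal brain (3.71% and 1.5% of all genes). The 7 cerebellar markers summed to 346 to 401 CPM in normal brain. In tumours other than PDGFA tumour 1 and IDH1WT tumour 1 they summed to 15.1 to 219 CPM. For all tumours 0 of 7 passed by edgeR (5.22% of all genes). A log2 value above 0 was found for 0 of 7, at a median of -1.06, beside 8670 of all 17812 genes at a median of -0.01. PDGFA tumour 1 had the highest cerebellar sum, 570 CPM, and the lowest Gli1. IDH1_R132H tumour 2, with the lowest sum, had the second lowest Gli1 of the tumours (0.916 CPM). Gli1 was highest, at 2.45 CPM, in IDH1WT tumours 1 and 3, with sums of 368 and 219 CPM. At a sum of 106 CPM each, PDGFA tumour 3 had 2.27 CPM of Gli1 and IDH1WT tumour 2 had 1.22 CPM. IDH1_R132H tumours 1 and 3 and PDGFA tumour 2 had sums of 185, 98.9 and 29.6 CPM, with Gli1 at 1.91, 1.18 and 1.82 CPM. The part of region and cell type in the Gli1 result was not tested. Exons of Gli1 overlap the opposite-strand gene Arhgap9 by 62 bases, which had 1 to 24 reads per library, and strand handling of the counting is not given in the sources used here. Opposite-strand predicted genes also share exon bases, Gm47200 with Gli1 (265), Gm6556 with Gli3 (188) and Gm27820 with Hhip (175).

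Gli2, which carries most of the activator function when the pathway is on (chromosome 1, 118834132 to 119053619, minus strand), stood at 6.93, 5.27 and 5.6 CPM in normal brain. IDH1WT tumours held 5.43, 5.85 and 8.19 CPM, PDGFA tumours 1.45, 4.31 and 4.17 CPM, and IDH1_R132H tumours 5.18, 5.6 and 4.34 CPM. The 3 PDGFA tumours were below every other library, by a small margin for IDH1_R132H tumour 3. IDH1WT against PDGFA gave a log2 difference of 0.95 (SE 0.35, unadjusted p = 0.018, edgeR adjusted p = 0.81), and IDH1_R132H against PDGFA 0.6 (SE 0.36, adjusted p = 0.57). Without PDGFA tumour 1 the difference IDH1WT against PDGFA was 0.6. Groups that do not overlap were found for 8.32% of all genes in the comparison of IDH1WT with PDGFA, and with IDH1WT higher for 4.32%.

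Gli3, known mainly as the repressor form of the family (chromosome 13, 15463235 to 15730026, plus strand), stood at 16.6, 15.7 and 13.7 CPM in normal brain and between 5.37 and 16.9 CPM, with a median of 14.3, in tumours. The tumours other than PDGFA tumour 1 lay between 11.6 and 16.9 CPM. Over normal brain the tumours had a log2 value of -0.2 (SE 0.26, edgeR adjusted p = 0.69). Within the family the ranges of tumour and normal brain lay apart for Gli1 and overlapped for Gli2 and Gli3. Whether Gli1 differed more than Gli2 or Gli3 was not tested.

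Compared per length of exon, the order of the levels was alike in normal brain and tumours at its ends. In normal brain Ptch1 was the highest at 9.36 ± 1.2 CPM per kb, followed by Smo (2.77 ± 0.191), Gas1 (2.64 ± 0.451) and Sufu (2.62 ± 0.599), which did not differ beyond their spread. Gli3 (1.6 ± 0.154) and Hhip (1.52 ± 0.0511) came next, again within their spread, and Gli2 (0.864 ± 0.128) and Gli1 (0.833 ± 0.29) were lowest and alike. In tumours Ptch1 stood at 6.89 ± 1.35 CPM per kb and Gas1 at 5.84 ± 2.62, within their spread, then Sufu (2.94 ± 0.427) and Smo (2.77 ± 0.996), Hhip (1.53 ± 0.402) and Gli3 (1.4 ± 0.365), Gli2 (0.72 ± 0.26) and last Gli1 (0.329 ± 0.14). Gas1 moved up in that order by 1 place, and Gli2 and Gli1 lay apart in tumours by more than their SD.

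The groups were then set against normal brain, which all 3 comparisons share, and against each other. In IDH1_R132H against normal brain edgeR called 0 of the 8 genes (7.17% of all genes), with 3 at an unadjusted p under 0.05 (25.7% of all genes). DESeq2 called 1 (13.9%), voom 3 (41.1%) and limma on rlog values 0 (4.29%). In IDH1WT against normal brain it was 0 (1.72% of all genes), with 0 at an unadjusted p under 0.05 (18.9%), DESeq2 0 (6.88%), voom 1 (16.9%) and rlog 0 (0.349%). In PDGFA against normal brain it was 0 (0.303% of all genes), with 2 at an unadjusted p under 0.05 (10.6%) and 0 by DESeq2 (2.45%), voom (2.45%) and rlog (0%). The ranges of IDH1_R132H and normal brain lay apart for 5 of the 8 genes (38.2% of all genes), with Smo and Gas1 higher (19.4%) and Gli1, Ptch1 and Hhip lower (18.8%). Those of IDH1WT and normal brain lay apart for 2 (31.9%), Gas1 higher (17.4%) and Gli1 lower (14.5%), and those of PDGFA and normal brain for 3 (15.8%), Hhip higher (8.23%) and Gli1 and Gli2 lower (7.54%). Between the tumour groups edgeR called 0 of the 8 genes in each comparison, and 0% of all genes in IDH1_R132H against IDH1WT, in IDH1_R132H against PDGFA and in IDH1WT against PDGFA. In each of these 1 of the 8 had an unadjusted p under 0.05, Hhip between IDH1_R132H and IDH1WT (2.67% of all genes), Hhip between IDH1_R132H and PDGFA (10.9%) and Gli2 between IDH1WT and PDGFA (5.83%). DESeq2, voom and rlog called 0 of the 8 in each. Of all genes they called 0% each between IDH1_R132H and IDH1WT, 0.824%, 2.22% and 0.0042% between IDH1_R132H and PDGFA, and 0.0654%, 0% and 0% between IDH1WT and PDGFA. Between IDH1_R132H and IDH1WT, the comparison nearest to the aim of the series, the largest differences beside Hhip were Gli1 at -0.64 (SE 0.52), Gas1 at 0.39 (SE 0.57) and Gli2 at -0.35 (SE 0.35), each with an edgeR adjusted p of 1. Ranges lay apart for 2 of the 8 genes between IDH1_R132H and IDH1WT (6.75% of all genes), Smo higher (2.96%) and Hhip lower, and for 2 between IDH1_R132H and PDGFA (13.1%), Gli2 higher (5.86%) and Hhip lower. The median standard error over all genes was 0.29 between IDH1_R132H and IDH1WT.

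PDGFA tumour 1 was at the low end for 6 of the 8 genes at once. It was the lowest of the 12 libraries for Gli1, Gli2, Gli3, Ptch1, Smo and Gas1, and the highest for Hhip, while Sufu stood at 20.5 CPM amid the other libraries. Although it lay among the normal brains on the first principal component, its Smo (3.69 CPM) and Gas1 (2.01 CPM) were well below the lowest normal brain (14.4 and 6.83 CPM). Its astrocyte marker sum was also the lowest of the 12 and its mature oligodendrocyte sum the highest; their part in these levels was not tested.

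**Figure D3:**
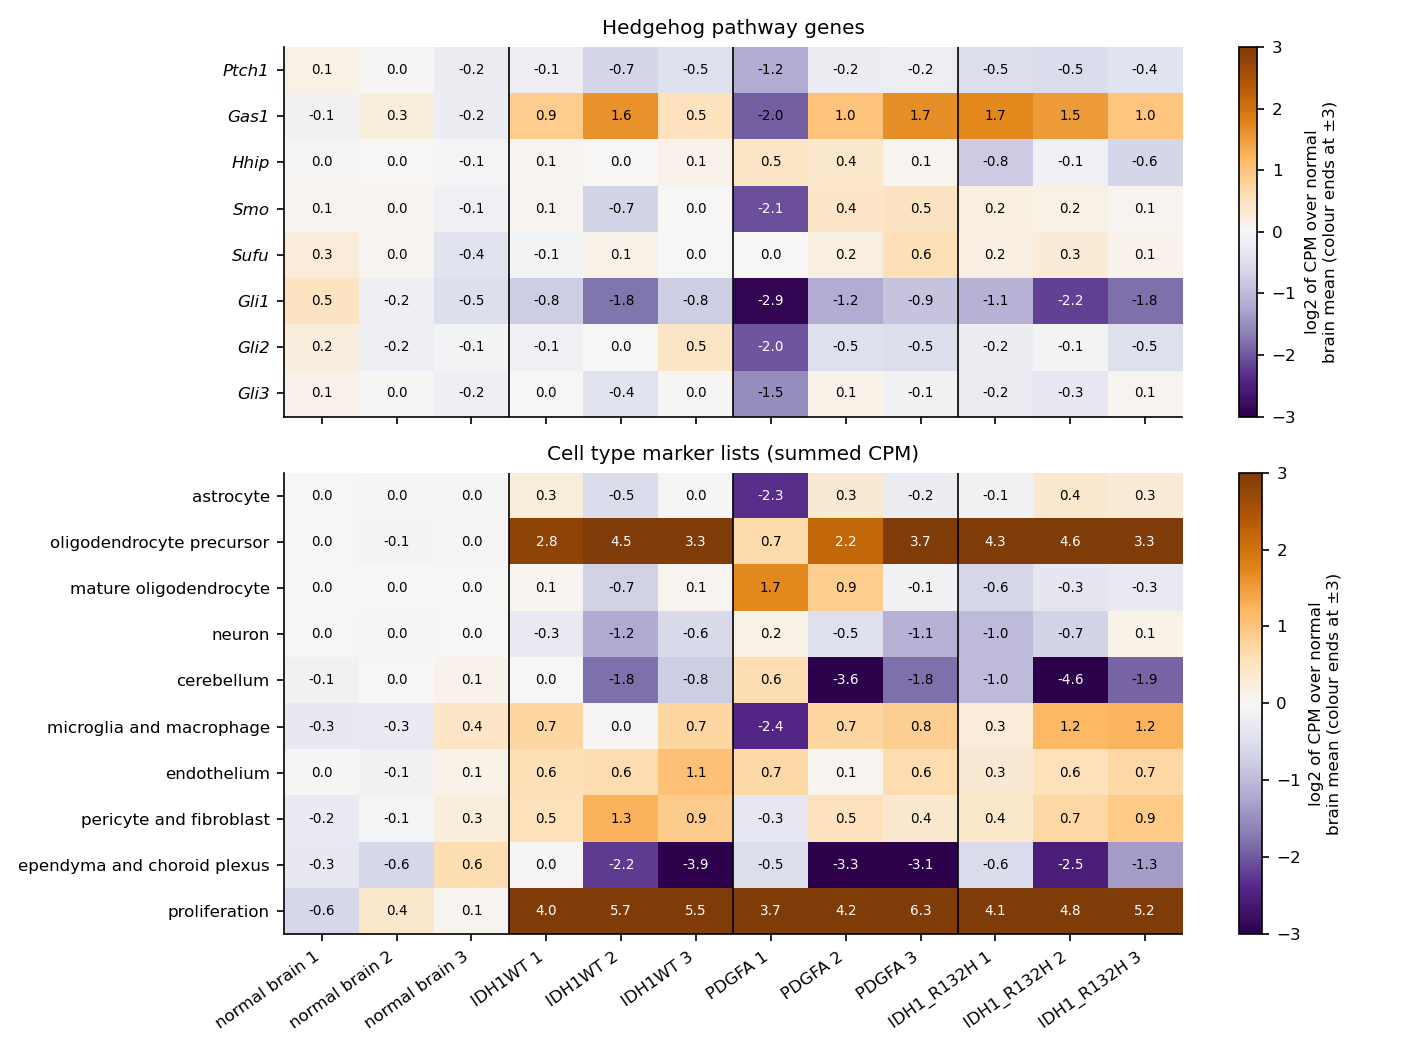
Log2 of each library's CPM over the mean of the normal brains (colour, ending at ±3, with the value printed) for the 8 genes (top) and for the summed CPM of 10 cell type marker lists (bottom), in columns by library. PDGFA tumour 1 is low in 6 of the Hedgehog genes, in astrocyte markers (942 CPM) and in microglia markers, and high in mature oligodendrocyte markers (10900 CPM).

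Within the 9 tumours Gli1 was set against each of the other 7 genes, on log2 CPM. Pearson's r was 0.82 with Ptch1 (exact permutation p = 0.0068, adjusted over 7 relations p = 0.046; Spearman's rho 0.73, exact p = 0.031, adjusted p = 0.22). It was 0.77 with Gli3 (exact p = 0.013, adjusted p = 0.046; rho 0.47, exact p = 0.21, adjusted p = 0.73). Both values of r were lower without the 2 tumours farthest from the median of Gli1. Leaving those out narrows the range of Gli1, so the lower r cannot show whether the relations rest on them. With any 1 tumour left out r was 0.61 to 0.89 with Ptch1 and 0.47 to 0.86 with Gli3. Without the 2 farthest, PDGFA tumour 1 and IDH1_R132H tumour 2, r was 0.56 with Ptch1 (exact p = 0.21) and 0.29 with Gli3 (exact p = 0.54) over 7 tumours. The values of r with Smo (0.74, exact p = 0.026, adjusted p = 0.061; rho 0.27, exact p = 0.49) and Gli2 (0.67, exact p = 0.045, adjusted p = 0.079; rho 0.32, exact p = 0.41) did not pass, and were 0.51 and 0.3 without the same 2 tumours. Gas1 had r = 0.55 (exact p = 0.12; rho 0.1, exact p = 0.81), Sufu r = 0.09 (exact p = 0.81; rho -0.25, exact p = 0.52) and Hhip r = -0.12 (exact p = 0.76; rho 0.02, exact p = 0.98). Hhip, a known target like Gli1 and Ptch1, thus had the r nearest to 0 after Sufu.

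**Figure D4:**
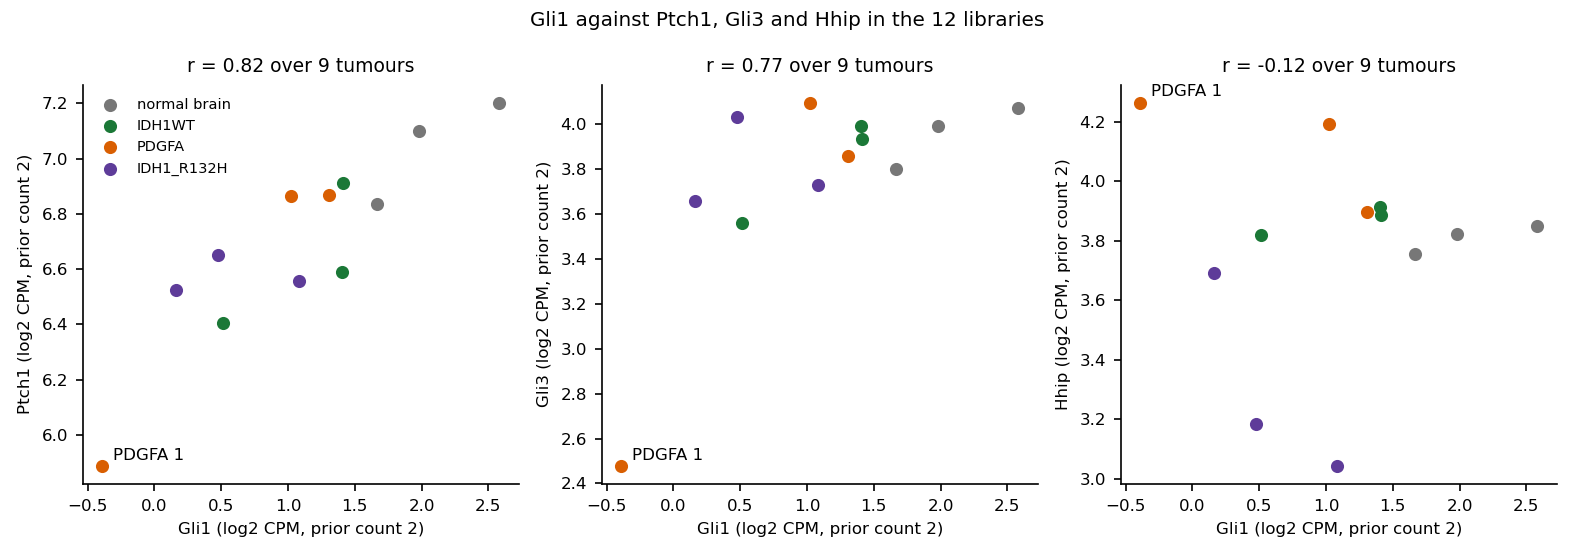
Log2 CPM (prior count 2) of Gli1 (horizontal) against Ptch1, Gli3 and Hhip (vertical) in the 12 libraries, coloured by group; r above each panel is over the 9 tumours. PDGFA tumour 1 lies far from the other tumours in the panels of Ptch1 (r = 0.82) and Gli3 (r = 0.77).

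For each of the 8 genes the 3 most similar genes were taken by Pearson's r over the 9 tumours, among 12869 genes, as a description; these points share 1 scaling and PDGFA tumour 1 lies far from the rest. Those of Gli1 were Zfp654 (0.929), Plcd4 (0.919) and the Wnt receptor gene Fzd1 (0.908), and without PDGFA tumour 1 they had 0.911, 0.869 and 0.815 over 8 tumours. Those of Ptch1 were Lgi4 (0.968), Mgst1 (0.957) and Mtfr1l (0.956), and those of Gli2 Ppp1r3c (0.958), Hs1bp3 (0.95) and Plce1 (0.949). Gli3 was closest to the syndecan gene Sdc4 (0.986), Klhdc7a (0.982) and Ntsr2 (0.981), the last a neurotensin receptor known from astrocytes. Smo was closest to Efemp1 (0.972), Tlr7 (0.971) and the epidermal growth factor receptor gene Egfr (0.971), and Gas1 to Hs3st3b1 (0.99), Cbfb (0.984) and the cell cycle kinase gene Cdk2 (0.978). Sufu (Pigw 0.971, Nav3 0.925, Gpr19 0.913) and Hhip (Ltk 0.944, Map1s 0.942, Prkch 0.931) had other neighbours. Without PDGFA tumour 1 the values of Smo with Egfr and of Gas1 with Cdk2 were 0.816 and 0.843. The neighbours of Gli2, in the order given, then had 0.768, 0.826 and 0.733. Those of Ptch1 had 0.894, 0.857 and 0.866, and those of Gli3 0.886, 0.856 and 0.845. Those of Sufu had 0.97, 0.96 and 0.907, Nav3 being higher than with all tumours, and those of Hhip 0.934, 0.929 and 0.915. None of the 8 genes was among the 3 closest of another.

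The rest of the pathway was described from lists of 63 other genes (1 of them in 2 lists), of which 62 were tested. In tumours against normal brain 5 rose and 1 fell by edgeR (all genes, 3.71% higher and 1.5% lower), with a median log2 fold change of -0.06 beside -0.01 for all genes. In IDH1_R132H against normal brain 5 rose and 3 fell (4.83% and 2.35%), in IDH1WT 3 rose and 0 fell (1.57% and 0.152%) and in PDGFA 1 rose and 0 fell (0.258% and 0.0449%). The 6 calls were the targets Ccnd1, Ccnd2, Nkx2-2 and Foxm1, the cilium protein gene Kif7 and the co-receptor gene Boc. None of the 6 calls held when any 1 normal brain was left out. In those fits 0 of the 62 and 0, 1 or 3 of all genes passed. Without PDGFA tumour 1 the calls numbered 15, in a fit that called 13.5% of all genes.

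Of 8 genes for ligands and their release 7 were tested and 0 passed by edgeR, with 2 at an unadjusted p under 0.05 (23.6% of all genes), 1 by DESeq2 (12.5%), 2 by voom (33.7%) and 0 by limma on rlog values (3.01%). Shh, the ligand of neurons, stood at 3.35, 2.2 and 2.71 CPM in normal brain and between 1.18 and 3.35 CPM in tumours (log2 -0.49, SE 0.32, adjusted p = 0.39). Dhh, a ligand known from Schwann cells and testis, had 2, 1 and 0 reads in the normal brains. It had 11, 56 and 9 reads in IDH1WT tumours, 1, 35 and 14 in PDGFA tumours and 12, 17 and 17 in IDH1_R132H tumours, so 8 of 9 tumours were above the normal brains (edgeR adjusted p = 0.066, DESeq2 adjusted p = 0.0033). Ihh had 0 to 7 reads in every library and was not tested.

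Of 8 other membrane proteins 1 fell and 0 rose by edgeR, beside 1.5% and 3.71% of all genes. An unadjusted p under 0.05 was found for 4 (23.6% of all genes). DESeq2 called 3 (12.5%), voom 4 (33.7%) and limma on rlog values 1 (3.01%). Boc, a co-receptor of the ligands like Gas1, stood at 36.7, 38.5 and 43.2 CPM in normal brain and between 14.8 and 31.3 CPM in tumours, with no overlap (log2 -0.9, SE 0.17, edgeR adjusted p = 0.018). The related co-receptor gene Cdon stood at 30.1, 29.1 and 22.8 CPM in normal brain and 14.6 to 26.9 CPM in tumours (log2 -0.53, SE 0.15, adjusted p = 0.056). Each of the 9 tumours was below the normal mean for both genes. Among co-receptors Boc fell, while Gas1 had higher values that did not pass over all tumours.

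Of 19 cytoplasmic regulators 1 rose and 0 fell by edgeR, beside 3.71% and 1.5% of all genes. An unadjusted p under 0.05 was found for 3 (23.6% of all genes). DESeq2 called 1 (12.5%), voom 5 (33.7%) and limma on rlog values 1 (3.01%). Kif7, the kinesin at the tip of the primary cilium that organises GLI proteins, went from 1.96, 1.87 and 1.84 CPM in normal brain to between 3.65 and 11.6 CPM in tumours, all 9 above (log2 1.93, SE 0.44, edgeR adjusted p = 0.029). Of 18 genes of the primary cilium, the organelle on which the pathway runs, 0 passed by edgeR, with 4 at an unadjusted p under 0.05, 1 by DESeq2, 5 by voom and 0 by limma on rlog values, beside 23.6%, 12.5%, 33.7% and 3.01% of all genes. Log2 values were above 0 for 2 of the 18, at a median of -0.18, beside 8670 of all 17812 genes at a median of -0.01. By group they were above 0 for 2 in IDH1_R132H (median -0.31), 2 in IDH1WT (-0.2) and 8 in PDGFA (-0.05).

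Of 11 genes known as targets in some tissues 4 rose and 0 fell by edgeR, beside 3.71% and 1.5% of all genes. An unadjusted p under 0.05 was found for 8 (23.6% of all genes). DESeq2 called 7 (12.5%), voom 9 (33.7%) and limma on rlog values 4 (3.01%). The G1 cyclin gene Ccnd1 went from 28.6, 35.2 and 51.7 CPM to between 77.5 and 701 CPM (log2 3.35, SE 0.62, edgeR adjusted p = 0.017) and Ccnd2 from 76.9, 76.5 and 57.1 CPM to between 92.8 and 580 CPM (2.1, SE 0.43, adjusted p = 0.023). The lineage factor gene Nkx2-2 went from 3.69, 2.96 and 2.01 CPM to between 5.14 and 29.2 CPM (2.54, SE 0.42, adjusted p = 0.015), and the mitotic factor gene Foxm1 from 1.5, 1.65 and 0.963 CPM to between 6.15 and 50.3 CPM (3.9, SE 0.66, adjusted p = 0.016). These 4 are also known as genes of proliferation or of the oligodendrocyte lineage. The lists of proliferation and oligodendrocyte precursor markers had 5 of 6 and 6 of 6 members higher by edgeR, beside 3.71% of all genes. The part of proliferation and lineage in the levels of the 4 targets was not tested. Mycn, a target in cerebellar progenitors, stood at 4.27, 6.15 and 4.55 CPM in normal brain and 2.45 to 7.21 CPM in tumours (log2 -0.26, SE 0.3, adjusted p = 0.63). The targets Gli1, Ptch1 and Hhip had log2 values of -1.34, -0.44 and -0.03, beside 2.1 to 3.9 for the 4 that rose, and no test compared them.

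**Figure D5:**
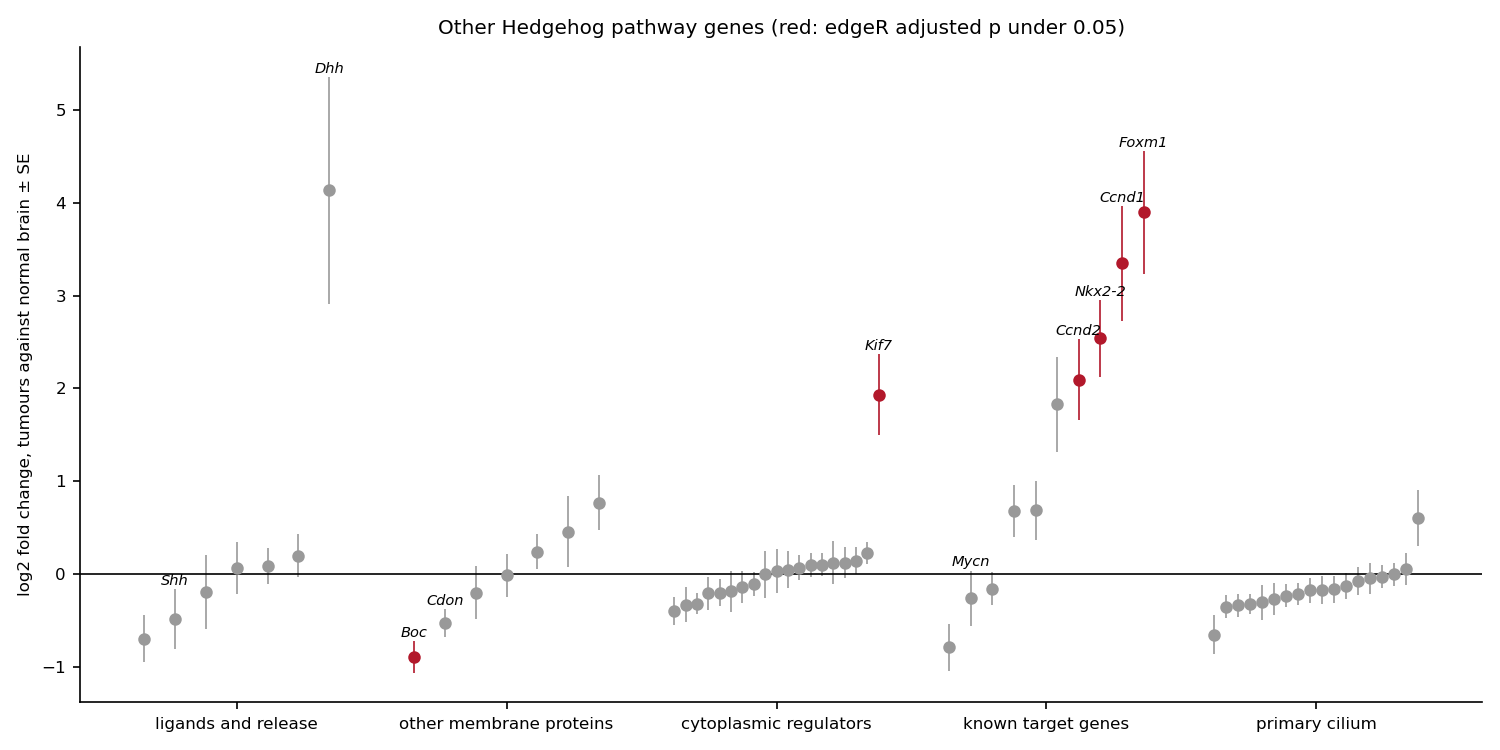
Log2 fold change of tumours against normal brain (vertical axis; points with bars of 1 SE from edgeR) for other pathway genes that were tested, in columns by list; red points passed at an adjusted p under 0.05. Ccnd1, Ccnd2, Nkx2-2, Foxm1 and Kif7 are the 5 that rose and Boc the 1 that fell.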

How the data were processed

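Total RNA from 12 formalin-fixed brain samples was sequenced. The authors deposited raw read counts per Ensembl gene and a table of log2 values, named rlog. Per the submitters' processing notes the build was GRCm38 and the tools were STAR 2.5.2b, Subread with featureCounts 1.5.1, and DESeq2 1.16.1. Annotation, strand setting and multi-mapping reads: not given in the sources used here. Symbols, positions and exon lengths came from GENCODE release M21. In R 4.3.3 filterByExpr kept genes by counts of at least 10 and a total of at least 15, TMM scaled the libraries, and edgeR 4.0.16 fitted a quasi-likelihood model with 1 coefficient per group to all 12 libraries (8 residual degrees of freedom). Calls used a Benjamini-Hochberg adjusted p under 0.05 over 17812 genes; the common biological coefficient of variation was 26.5%. Group and library numbers pair nothing. The fits were tested on simulated data. In tumours against normal brain edgeR called 47% of genes changed 2-fold and 97% of those changed 8-fold. For 2-fold changes it called 12.5% in PDGFA against normal brain and 16.2% to 30.4% between tumour groups, so changes of that size are often missed. Alternatives were RLE factors, DESeq2 1.42.0, limma 3.58.1 (voom weights, rlog values), no low count filter, no ribosomal-RNA-like loci, only the groups compared, and libraries left out. Genes named are the 8 members with the 3 genes most like each, other pathway genes that passed, and Shh, Ihh, Dhh, Boc, Cdon, Ccnd1 and Mycn. Members and lists were chosen with earlier results of these data known. Some items of the genotype and of the gene lists are not reported here.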

Additional observations from a re-analysis of the deposited data

Results flagged for a closer look

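In the 9 tumours PDGFA tumour 1 was far below the others in 5 genes, by the gap to the next tumour as a share of the whole range of log2 CPM. The share was 0.598 for Gli2, 0.668 for Gli3, 0.504 for Ptch1, 0.55 for Smo and 0.664 for Gas1, above Dixon's critical value at the 95% level for 9 samples. Chance flags about 1 in 20 such groups, and the 5 values come from a single library. For Gli1 the share was 0.308.

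Hhip lay on opposite sides of normal brain, with every IDH1_R132H tumour below and every PDGFA tumour above the normal brains. Taken singly, these patterns were found for 18.8% and 8.23% of all genes. The difference between IDH1_R132H and PDGFA tumours was -0.79 on the log2 scale (SE 0.2) and did not pass (edgeR adjusted p = 0.28).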

How the results depend on the processing

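The 8 genes called against normal brain depended on the tool and on single libraries. For all tumours the count was 0 with edgeR, 1 with DESeq2 and with limma on rlog values (Gli1), 3 with voom (Gli1, Ptch1 and Gas1), 2 with no filter on low counts and 2 with both PDGFA tumour 1 and IDH1_R132H tumour 3 left out (Gli1 and Gas1 each time), and 0 to 2 when 1 library was left out (2 without PDGFA tumour 1). For IDH1_R132H it was 1, 3, 2 and 1 with DESeq2, voom, no filter and without both tumours, and 3 with only the groups compared. For IDH1WT it was 1 with voom, no filter and without both tumours, and for PDGFA 1 without both tumours and 0 to 1 when 1 library was left out. Of the 62 other pathway genes 12 were called with DESeq2 (12.5% of all genes), 24 with voom (33.7%), 12 without the filter (5.19%), 15 without both tumours (15.7%) and 0 to 15 when 1 library was left out (15 without PDGFA tumour 1, 13.5%). In the same order as given, the shares of all genes called for tumours were 5.22%, 12.5%, 3.01%, 33.7%, 5.19% and 15.7% (edgeR, DESeq2, rlog, voom, no filter, both tumours left out). For IDH1_R132H they were 13.9%, 41.1%, 5.81%, 11.6% and 20.3%, for IDH1WT 16.9%, 3.66% and 6.96%, and for PDGFA 5.19%. When 1 library was left out the shares of all genes ran from 0% to 13.5% for tumours and from 0% to 4.4% for PDGFA. Both were highest without PDGFA tumour 1.

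The r of Gli1 with Gli3 was 0.69 on rlog values and 0.71 without both tumours (0.47 to 0.86 when 1 tumour was left out), and with Ptch1 0.78 and 0.64 (0.61 to 0.89). Without both tumours r turned to -0.19 for Sufu, 0.13 for Hhip and -0.51 for Gas1, and with 1 tumour left out it spanned -0.32 to 0.32, -0.26 to 0.31 and -0.38 to 0.69.

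Of 1033 single-gene values 56 changed sign, 0 of them with an adjusted p under 0.05. With voom the log2 values turned to 0.003 (Smo) and 0.021 (Hhip) for tumours, -0.092 for Sufu in IDH1WT and 0.038 for Smo in PDGFA against normal brain, -0.117 (Gli3) and 0.004 (Sufu) for IDH1_R132H against PDGFA and -0.09 (Ptch1) for IDH1WT against PDGFA. Without the filter they were -0.039 (Sufu, IDH1WT), 0.022 (Smo, PDGFA) and -0.02 (Ptch1, IDH1WT against PDGFA), on rlog values 0.014 (Ptch1, IDH1_R132H against PDGFA) and 0.049 (Smo, IDH1WT against PDGFA), and with the groups compared only 0 (Smo, PDGFA). Without both tumours they were 0.166 (Smo, tumours), 0.038 (Gli3) and 0.463 (Smo) in PDGFA against normal brain, -0.3 (Gli3) and -0.28 (Smo) for IDH1_R132H against PDGFA, and -0.144 (Gli3), -0.217 (Ptch1) and -0.313 (Gas1) for IDH1WT against PDGFA.

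With 1 library left out, signs varied as follows. Against normal brain the ranges were -0.111 to 0.146 (Smo), -0.007 to 0.317 (Sufu) and -0.114 to 0.015 (Hhip) for tumours, -0.088 to 0.242 (Gli2), -0.208 to 0.007 (Gli3), -0.297 to 0.03 (Smo) and -0.16 to 0.163 (Sufu) for IDH1WT, and -0.63 to 0.031 (Gli3) and -0.314 to 0.459 (Smo) for PDGFA. They were -0.157 to 0.053 (Gli3) and -0.183 to 0.088 (Ptch1) for IDH1_R132H against IDH1WT. They were -0.631 to 0.095 (Gli1), -0.187 to 0.474 (Gli3), -0.3 to 0.11 (Ptch1), -0.315 to 0.458 (Smo) and -0.222 to 0.067 (Sufu) for IDH1_R132H against PDGFA. They were -0.153 to 0.508 (Gli3), -0.229 to 0.183 (Ptch1), -0.624 to 0.149 (Smo) and -0.332 to 0.818 (Gas1) for IDH1WT against PDGFA. The cause of these changes was not tested. Gli1 rests on 5 to 50 reads per library, which limits its precision. No paired analysis was possible because the labels give no replicate numbers shared between groups.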
